A study of Mus musculus with 4 samples.

Results

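Malat1, Neat1, Tug1, Miat, Kcnq1ot1 and Dleu2 are long non-coding RNAs of the nucleus, and their levels were followed in mouse embryonic stem (ES) cells and in cells derived from them by removal of leukemia inhibitory factor (LIF), the cytokine that holds mouse ES cells undifferentiated. The genes were chosen by name: they are the 6 of 47633 genes in the deposited table whose Ensembl identifier maps to 1 of these symbols, and all 6 reached 1 FPKM, a level scaled by transcript length and library size, in at least 1 library. The series holds 4 total RNA libraries of cells of strain 129S2/SvPas. One library came from ES cells kept 2 days without LIF (the LIF withdrawal library), 1 from embryoid bodies made by 5 days without LIF (the EB library), and 2 from undifferentiated ES cells (ES 1 and ES 2). Per the labels' protocols, the ES cells grew with LIF on a feeder layer of mitomycin C-treated fibroblasts from C57/BL6 embryos at E14.5, and no group carries a genetic change. The labels do not say whether ES 1 and ES 2 were separate cultures, so p-values measure only the spread of this pair, which may be technical. They do not say whether feeder cells were removed before RNA was taken.

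Long non-coding RNAs are transcripts without a long open reading frame, and many of them stay in the nucleus. Malat1 accumulates in nuclear speckles, bodies rich in splicing factors, and the long form of Neat1 is the scaffold around which paraspeckles assemble. Miat forms nuclear foci of its own, Tug1 was first studied in the developing retina, Kcnq1ot1 silences imprinted genes from the paternal chromosome, and Dleu2 is the host transcript of the microRNAs miR-15a and miR-16.

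Malat1 and Neat1 are neighbours on chromosome 19 (build mm10), on the minus strand and 22.0 kb apart. Malat1 (ENSMUSG00000092341.2) spans chr19:5795690-5802672, a single block of 6983 nt of exon in the annotation, and Neat1 (ENSMUSG00000092274.2) spans chr19:5824708-5845478, 20771 nt. Both long transcripts have an uncommon 3′ end: a genomically encoded A-rich tract that pairs with upstream U-rich stretches in a triple helix in place of a poly(A) tail, made when RNase P cuts just behind it and releases a small tRNA-like RNA. The 100 bases that end with this tract are shown because they are what the pair shares beyond position, and because a library made from total RNA does not need a poly(A) tail. Capitals mark runs of 4 or more T and the A-rich tract, read from the GENCODE transcripts of GRCm38 as DNA letters.
Malat1 3′ end, chr19:5795982-5796081, minus strand: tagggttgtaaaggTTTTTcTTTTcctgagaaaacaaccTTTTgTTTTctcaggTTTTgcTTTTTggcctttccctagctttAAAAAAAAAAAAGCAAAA
Neat1 3′ end, chr19:5824708-5824807, minus strand: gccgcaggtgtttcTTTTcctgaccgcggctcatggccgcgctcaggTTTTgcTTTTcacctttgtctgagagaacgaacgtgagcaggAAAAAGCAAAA
The annotated Neat1 transcript ended exactly with its tract, whereas the annotated Malat1 transcript ran on for 292 nt behind it. A tract of at least 5 A followed by GCAAAA, searched on the transcript strand alone, stood in 55 of 9539 annotated long non-coding transcripts of 1000 nt or more (0.577%). The match describes letters and is not a measurement of processing in these libraries.

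Dleu2 (ENSMUSG00000097589.9, chr14:61602839-61682373, minus strand, 11334 nt of exon in 15 annotated transcripts) carries the microRNA pair that gives it its best known function. The mature forms are shown because they share 1 seed, bases 2 to 8, in capitals, which sets the targets of a microRNA (sequences from RefSeq, GRCm38.p6).
mmu-miR-15a-5p, chr14:61632075-61632096, minus strand: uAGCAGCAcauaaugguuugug
mmu-miR-16-5p, chr14:61631936-61631957, minus strand: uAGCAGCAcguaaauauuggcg
The precursor genes Mir15a and Mir16-1 were listed at 0 FPKM in all 4 libraries, so the host transcript is the only readout of this locus here.

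Whole-library facts bear on every value that follows. Estimated depth ran from about 18100000 fragments in the LIF withdrawal library to 31500000 in ES 1, and the 20 most abundant genes held 47.4% of the FPKM sum after LIF withdrawal and 22.4% in EB, against 20.2% in ES 1 and 13.6% in ES 2. Pluripotency markers (9 genes) summed to 2110 FPKM after LIF withdrawal and 2611 FPKM in EB, against 1964 FPKM in ES 1 and 1941 FPKM in ES 2, so the embryoid bodies still held them. None of these 9 markers was at 0 in any library. Dppa5a, the most abundant of them, had 805 FPKM after LIF withdrawal and 1136 FPKM in EB, against 561 FPKM in ES 1 and 577 FPKM in ES 2. By gene, the LIF withdrawal library was above both ES libraries for 3 of the 9 and below both for 5. The EB library was above both for 6 and below both for 3. Markers of fibroblast feeders (20 genes) summed to 257.9 FPKM after LIF withdrawal and 97.4 FPKM in EB, against 88.5 FPKM in ES 1 and 88.3 FPKM in ES 2. The LIF withdrawal library was above both ES libraries for 19 of these 20 genes, against 48.4% of all tested genes. Of the 18 tested, 5 were called higher (Postn, S100a4, Dcn, Col5a2 and, outside the naming rule and after its values were seen, Fbln2), against 7.32% of all tested genes called higher. By gene, 13 of the 20 were highest after LIF withdrawal and 6 in EB, where 4 tested markers (Col6a1, Dcn, Pdgfrb and Col3a1, named after their values were seen) were at least 2-fold above both ES libraries. Of the 20, 1 was at 0 in ES 1, and 2 were at 0 in ES 2. Markers of differentiation (12 genes) summed to 35.6 FPKM after LIF withdrawal and 30.6 FPKM in EB, against 18.1 FPKM in ES 1 and 17.3 FPKM in ES 2, and most of this sum was Otx2. Without Otx2 the sums were 9.90 FPKM after LIF withdrawal and 6.13 FPKM in EB, against 8.84 FPKM in ES 1 and 8.24 FPKM in ES 2. The LIF withdrawal library was above both ES libraries for 6 of the 12 and below both for 5, and the EB library was above both for 3 and below both for 7. Of the 6 tested, Otx2 and Eomes were called higher after LIF withdrawal.

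The strand setting of the libraries is not stated, and more genes lying inside exons of the other strand were above 0 in the LIF withdrawal library than in the other 3. Of 558 genes that lie at least 90% inside exons of genes on the other strand, 237 (42.5%) were above 0 FPKM after LIF withdrawal and 97 (17.4%) in EB, against 82 (14.7%) in ES 1 and 79 (14.2%) in ES 2. The same library gave a median log2 difference from ES of 0.83 over the 1108 long non-coding genes tested, against 0.04 over all 15676 genes tested. Over the 223 tested long non-coding genes of at least 1000 nt with no gene body on the opposite strand, the median was 0.08. The opposite-strand overlap of each of the 6 RNAs is therefore given beside its values, and without strand information reads of a gene and its antisense partner cannot be told apart.

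**Figure D1:**
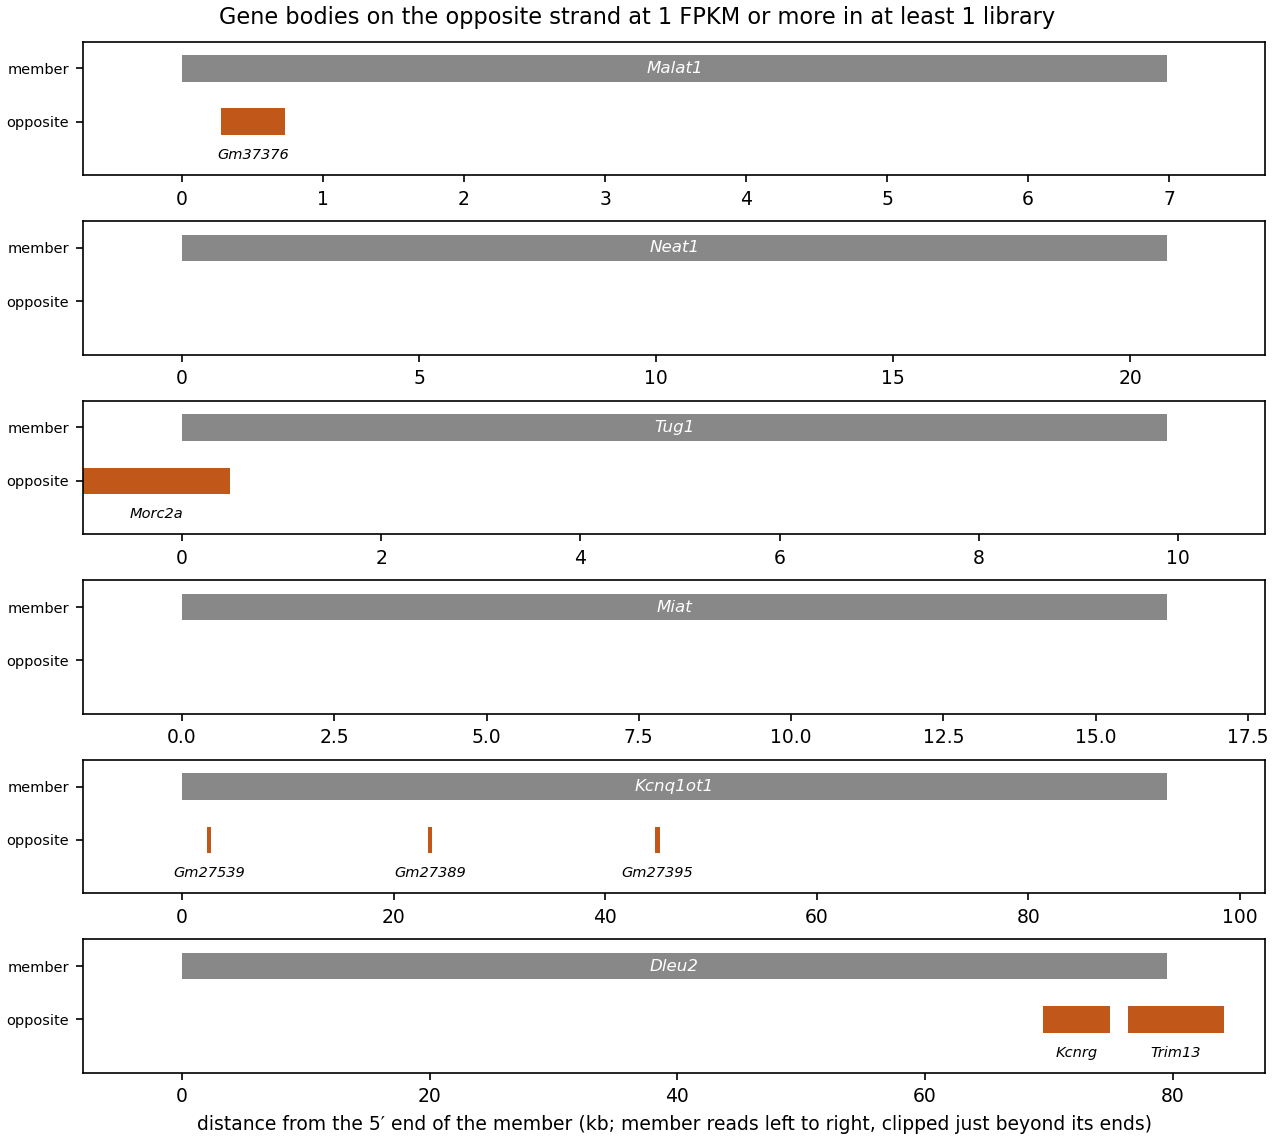
Position of annotated gene bodies on the opposite strand (orange) against each of the 6 RNAs (grey), in kb from the 5′ end of each RNA, for genes that reached 1 FPKM in at least 1 library; the short bars in the Kcnq1ot1 panel are widened to be visible. Neat1 and Miat have no such gene, Gm37376 lies inside Malat1, and Morc2a and Trim13 overlap an end of Tug1 and Dleu2.

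In all 3 comparisons, limma fitted on log2(FPKM + 1) over 15676 genes called 0 of the 6 RNAs, a call being a Benjamini-Hochberg adjusted p under 0.05 together with a log2 difference of at least 1 in either direction. Over all tested genes it called 7.67% for LIF withdrawal against ES (7.32% higher and 0.357% lower), 0.396% for EB against ES (all higher, 0.00% lower) and 7.88% for EB against LIF withdrawal (0.785% higher and 7.10% lower). An unadjusted p under 0.05 was reached by 5837 genes for LIF withdrawal against ES, 4338 for EB against ES and 5761 for EB against LIF withdrawal. Most of these calls were genes under 1 FPKM in both ES libraries: 1025 of 1203 for LIF withdrawal against ES (85.2%), and all 62 for EB against ES. The 6 RNAs belong to the 13518 tested genes that reached 1 FPKM in an ES library, and of those 178 (1.32%) were called after LIF withdrawal and 0 (0.00%) in EB. The only residual degree of freedom is the ES pair, so each lone library is assumed to vary as that pair does. A 2-fold ratio from both ES libraries, applied without a test, was reached by 0 of the 6 RNAs, against 15.3% of tested genes after LIF withdrawal and 8.01% in EB.

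**Figure D2:**
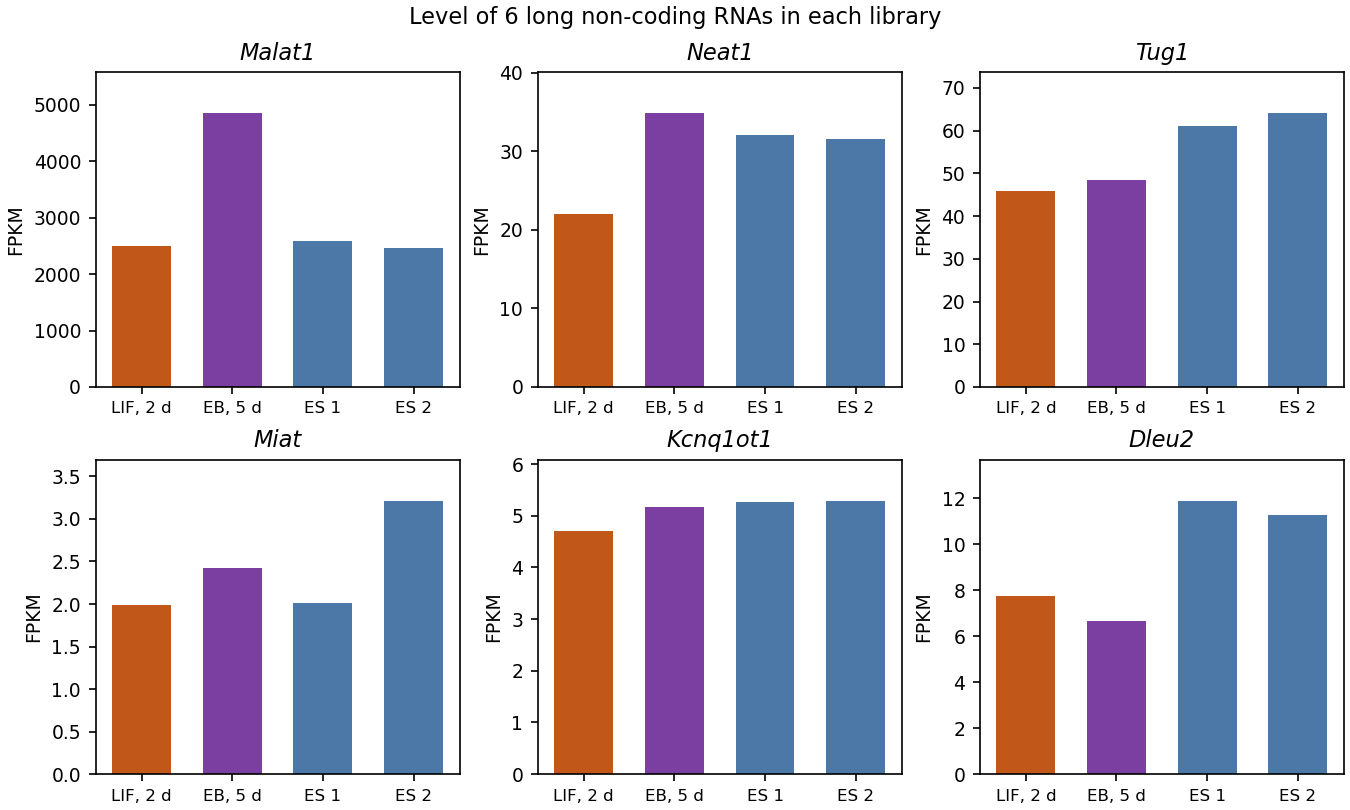
FPKM of each RNA in the 4 libraries, with a separate linear axis from 0 for each gene; each bar is 1 library. Malat1 stands apart in EB at 4853 FPKM, Neat1 is lowest after LIF withdrawal at 22.0 FPKM, and Tug1 and Dleu2 are lower in both derived libraries than in both ES libraries.

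Malat1 was the most abundant of the 6 RNAs by far, and its EB value stood apart. It had 2491 FPKM after LIF withdrawal and 4853 FPKM in EB, against 2592 FPKM in ES 1 and 2459 FPKM in ES 2 (2526 ± 93.8, SD, n = 2). The EB library was above both ES libraries, as it was for 37.6% of tested genes, and the LIF withdrawal library lay between them. The EB value was 1.92 times the ES mean, a log2 difference of 0.94 (SE 0.23, 95% interval -0.18 to 2.07), which did not pass the test (limma, adjusted p = 0.203). Fewer cells of a type and less RNA per cell cannot be told apart in such bulk libraries.

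A larger positive difference in EB was seen for 3.49% of all tested genes and for 2.17% of tested long non-coding genes. Between LIF withdrawal and ES the log2 difference of Malat1 was -0.02 (SE 0.23, 95% interval -1.14 to 1.10, limma adjusted p = 0.960). Between EB and LIF withdrawal it was 0.96 (SE 0.27, limma adjusted p = 0.176). The fit ties the spread of a gene to its mean level, and the 2 ES values of Malat1 were themselves 1.05-fold apart.

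Malat1 ranked second of 6943 long non-coding genes in each of the 4 libraries, behind Gm42418, whose exons lie 99.5% inside exons on the opposite strand. Genes were placed in this pool by annotated type alone. It also holds the chaperonin gene Cct6a, at 570 FPKM after LIF withdrawal, and Gm12238, of 124 nt, at 1231 FPKM in ES 2. The share of Malat1 in the FPKM sum of the pool was 14.9% after LIF withdrawal and 31.7% in EB, against 19.2% in ES 1 and 17.8% in ES 2. The 1108 tested genes of this pool had a median log2 difference from ES of 0.83 after LIF withdrawal, and the part of that shift in the share was not tested. Among all genes Malat1 ranked 14th after LIF withdrawal and 9th in EB, against 16th in ES 1 and 12th in ES 2.

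Other abundant structured RNAs were also highest in EB. A list of 8 such RNAs summed to 20478 FPKM after LIF withdrawal and 59611 FPKM in EB, against 37608 FPKM in ES 1 and 24864 FPKM in ES 2. The 6 listed genes that were tested all lay above both ES libraries in EB, as 37.6% of all tested genes did. Their median log2 difference was 1.05, against -0.01 over all tested genes. Of the 6, 0 were called, against 0.396% of all tested genes. Rn7sk, the RNA that restrains the elongation factor P-TEFb, had 11256 FPKM after LIF withdrawal and 26000 FPKM in EB, against 14348 FPKM in ES 1 and 8921 FPKM in ES 2. Rmrp, the RNA of RNase MRP, had 6965 FPKM after LIF withdrawal and 27023 FPKM in EB, against 18785 FPKM in ES 1 and 13235 FPKM in ES 2. The ES pair spread more for both of these RNAs than for Malat1, and the part of this shift in the Malat1 value was not tested.

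On the opposite strand, Malat1 contains 1 annotated gene, Gm37376 (chr19:5801941-5802393, plus strand), whose 453 nt are the exact reverse complement of positions 280 to 732 of the Malat1 transcript, 6.49% of its exon length. It was listed at 406.3 FPKM after LIF withdrawal, 16.3% of the Malat1 value there, and at 0 in EB, ES 1 and ES 2. Its first 120 bases are shown because a read placed there lies in both genes (GENCODE, GRCm38, no part in capitals).
Gm37376, chr19:5801941-5802060, plus strand: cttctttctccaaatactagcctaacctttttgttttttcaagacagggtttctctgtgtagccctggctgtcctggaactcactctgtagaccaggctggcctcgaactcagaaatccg
The 16.3% compares values per kilobase. At the estimated depth, Gm37376 held about 3325 fragments after LIF withdrawal, against about 314161 for the longer Malat1. The part of this assignment in the LIF withdrawal value of Malat1 was not tested. The EB and ES values carry no FPKM on Gm37376.

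**Figure D3:**
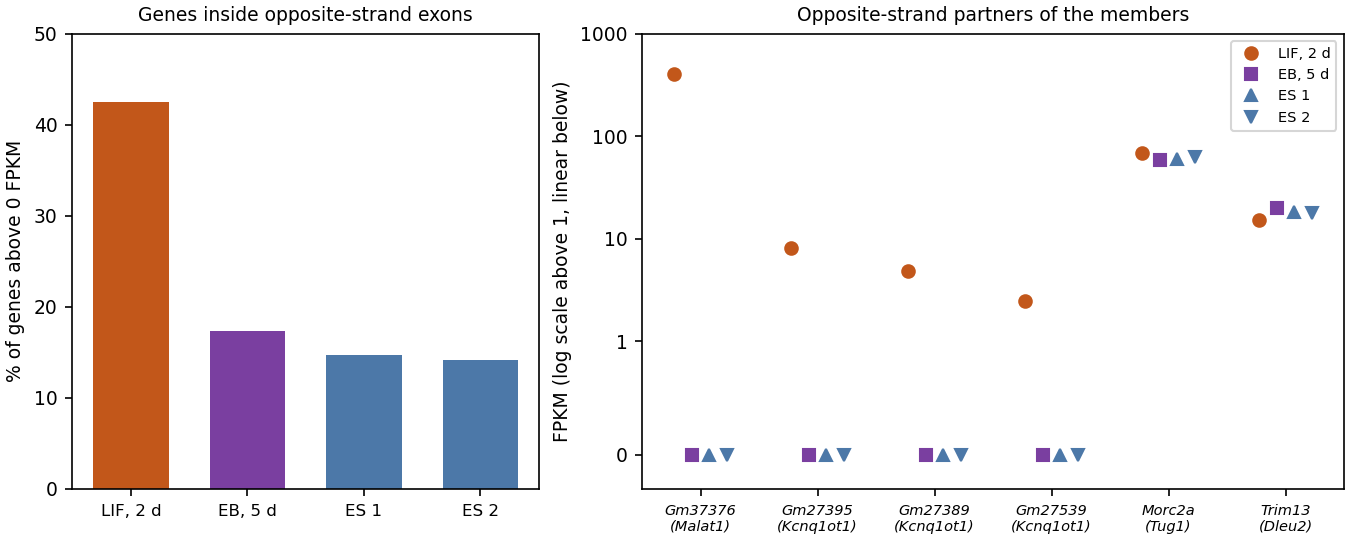
Left, percent of 558 genes lying at least 90% inside opposite-strand exons that were above 0 FPKM in each library. Right, FPKM of opposite-strand partners of 4 of the 6 RNAs (named in brackets) in each library, linear below 1 and logarithmic above; Gm37376 and the 3 Kcnq1ot1 partners are above 0 only after LIF withdrawal, whereas Morc2a and Trim13 have values in all 4 libraries.

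Neat1, the paraspeckle scaffold, was lowest after LIF withdrawal and close to its ES level in EB. It had 22.0 FPKM after LIF withdrawal and 34.8 FPKM in EB, against 32.1 FPKM in ES 1 and 31.6 FPKM in ES 2 (31.8 ± 0.340, SD, n = 2). Of 758 tested long non-coding genes above 0 in both ES libraries, 93.9% were farther apart. The narrow Neat1 intervals given next rest on this close pair. The LIF withdrawal library was below both ES libraries, as it was for 36.6% of tested genes, and the EB library was above both by a smaller step; the pattern of LIF withdrawal below and EB above both ES libraries was found in 10.6% of tested genes.

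Between LIF withdrawal and ES the log2 difference of Neat1 was -0.52 (SE 0.03, 95% interval -0.64 to -0.39, limma adjusted p = 0.0456), a ratio of 0.689. Its adjusted p was under 0.05, as for 10.0% of tested genes at any size of difference, but the difference stayed short of the size that a call required. Between EB and LIF withdrawal the log2 difference was 0.64 (SE 0.03, 95% interval 0.50 to 0.79, limma adjusted p = 0.0426), also short of that size, and 10.0% of tested genes had an adjusted p under 0.05 there. Between EB and ES it was 0.13 (SE 0.03, limma adjusted p = 0.182). These 2 comparisons share the LIF withdrawal library, and the adjusted p moved above 0.05 under some settings, given below with the processing.

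No annotated gene lies on the strand opposite Neat1, and 3 small RNA models within it on its own strand were listed at 0 in all libraries, so its values carry no overlap of the kind seen at Malat1. The summed feeder markers were highest in the library in which Neat1 was lowest, although 6 of the 20 were highest in EB, and their part in the Neat1 value was not tested. The ratio of Malat1 to Neat1, both per kilobase, was 113 after LIF withdrawal and 139 in EB, against 80.8 in ES 1 and 77.8 in ES 2. Neat1 ranked 74th of the long non-coding genes after LIF withdrawal and 30th in EB, against 35th in ES 1 and 34th in ES 2. The 1108 tested genes of that pool had a median log2 difference of 0.83 after LIF withdrawal. Kcnq1ot1, with a log2 difference of -0.14 there, ranked 289th after LIF withdrawal, against 122nd in ES 1 and 127th in ES 2. The part of this shift of the pool in the Neat1 rank was not tested. The short and long forms of Neat1 share their 5′ part and are not separated in these gene-level values.

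**Figure D4:**
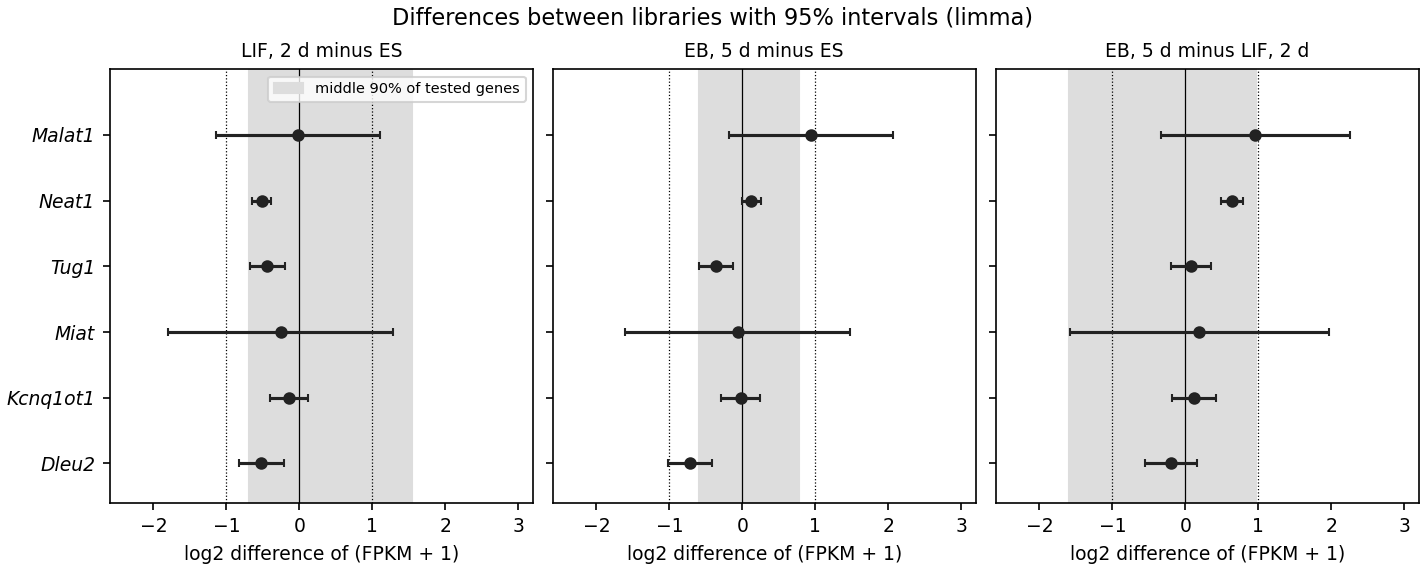
Log2 differences of (FPKM + 1) for the 6 RNAs in the 3 comparisons, with 95% intervals from limma; grey bands hold the middle 90% of tested genes and dotted lines mark a log2 difference of 1 in either direction. Neat1 has narrow intervals away from 0 against LIF withdrawal, Malat1 and Miat have wide ones, and Malat1 and Dleu2 lie outside the band in EB against ES.

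Tug1 and Dleu2 had lower values in both derived libraries than in both ES libraries, and neither passed the test. Tug1 (ENSMUSG00000056579.17, chr11:3639785-3649673, minus strand, 9734 nt of exon) had 45.9 FPKM after LIF withdrawal and 48.4 FPKM in EB, against 61.1 FPKM in ES 1 and 64.1 FPKM in ES 2 (62.6 ± 2.12, SD, n = 2). Its log2 difference from ES was -0.44 after LIF withdrawal (SE 0.05, limma adjusted p = 0.0841) and -0.36 in EB (SE 0.05, limma adjusted p = 0.148). Between EB and LIF withdrawal it was 0.08 (SE 0.06, limma adjusted p = 0.433). Both derived libraries were below both ES libraries for 21.2% of all tested genes, and the EB library was for 42.9%.

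The 5′ end of Tug1 overlaps Morc2a, a gene for a chromatin protein of the MORC family, on the opposite strand. They share 483 nt of exon, 4.96% of Tug1. Morc2a had 68.9 FPKM after LIF withdrawal and 59.1 FPKM in EB, against 60.1 FPKM in ES 1 and 62.2 FPKM in ES 2, so it was highest in a library where Tug1 was low.

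Dleu2 had 7.76 FPKM after LIF withdrawal and 6.65 FPKM in EB, against 11.9 FPKM in ES 1 and 11.3 FPKM in ES 2 (11.6 ± 0.440, SD, n = 2). Both derived values were below the ES pair, as for 21.2% of all tested genes. The log2 difference from ES was -0.52 after LIF withdrawal (SE 0.06, limma adjusted p = 0.0908) and -0.72 in EB (SE 0.06, 95% interval -1.02 to -0.41, limma adjusted p = 0.139). Of all tested genes, 3.19% had a lower difference in EB than Dleu2.

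Exons on the strand opposite Dleu2 cover 688 nt of it (6.07%), and gene bodies there hold 2235 nt (19.7%). The expressed genes there are Trim13, which encodes a ubiquitin ligase, and Kcnrg, which encodes a potassium channel regulator. Trim13 had 15.2 FPKM after LIF withdrawal and 19.9 FPKM in EB, against 18.1 FPKM in ES 1 and 17.6 FPKM in ES 2. Kcnrg stayed between 0.462 and 1.48 FPKM, and on the strand of Dleu2 itself Gm27010 stayed between 0.380 and 1.28 FPKM.

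The promoters of Tug1 and Dleu2 run from 250 bases before to 50 after the RefSeq transcript start (RefSeq, GRCm38.p6). The Tug1 start lies inside the longer GENCODE gene. They are shown because both RNAs had lower values in both derived libraries. Kcnq1ot1 also lay below both ES libraries in both, by a smaller step. Promoters were available for 5 of the 6 genes, Neat1 not among them. Capitals mark GGGCGG (GC box) and CACGTG (E-box) on either strand.
Tug1 promoter, chr11:3648765-3649064, minus strand: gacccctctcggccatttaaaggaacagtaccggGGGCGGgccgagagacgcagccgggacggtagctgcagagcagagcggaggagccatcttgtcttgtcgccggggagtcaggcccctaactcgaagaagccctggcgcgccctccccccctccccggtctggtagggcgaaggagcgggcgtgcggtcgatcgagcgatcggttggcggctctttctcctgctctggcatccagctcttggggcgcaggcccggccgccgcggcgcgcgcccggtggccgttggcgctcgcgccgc
Dleu2 promoter, chr14:61682324-61682623, minus strand: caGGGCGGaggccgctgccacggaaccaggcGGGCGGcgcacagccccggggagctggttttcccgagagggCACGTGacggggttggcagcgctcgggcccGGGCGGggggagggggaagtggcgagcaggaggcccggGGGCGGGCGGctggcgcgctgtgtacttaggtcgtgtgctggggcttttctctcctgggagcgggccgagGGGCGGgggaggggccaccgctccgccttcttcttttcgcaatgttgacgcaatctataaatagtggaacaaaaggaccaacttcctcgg
GGGCGG occurred once in the Tug1 window and 6 times in the Dleu2 window, where a pair of matches overlap, and 35.7% of all 32851 promoters held it. CACGTG occurred once in the Dleu2 window and not in that of Tug1, and 7.15% of promoters held it. TATAAA occurred once in the Dleu2 window, behind the transcript start (13.6% of promoters), and CCAAT in neither (37.4%). The Tug1 window had 37 CpG pairs and the Dleu2 window 29, more than in 94.4% and 87.1% of promoters. The Malat1 window held none of the 4 motifs and 10 CpG pairs. The Kcnq1ot1 window held CCAAT 3 times, no other of these motifs and 9 CpG pairs. That of Miat, whose EB value lay between the ES libraries, held GGGCGG once, no other motif and 25 CpG pairs. A tie between these motifs and the values was not tested.

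Miat (ENSMUSG00000097767.8, chr5:112213228-112229395, minus strand, 9293 nt of exon) was the least abundant of the 6 RNAs. It had 1.99 FPKM after LIF withdrawal and 2.42 FPKM in EB, against 2.02 FPKM in ES 1 and 3.22 FPKM in ES 2 (2.62 ± 0.849, SD, n = 2). The ES libraries differed 1.60-fold from each other, more than either derived library did from the ES mean, and the EB value lay between them. Of 758 long non-coding genes above 0 in both ES libraries, 19.7% were farther apart. The log2 difference from ES was -0.25 after LIF withdrawal (SE 0.32, 95% interval -1.80 to 1.29, limma adjusted p = 0.626) and -0.06 in EB (SE 0.32, 95% interval -1.60 to 1.48, limma adjusted p = 0.943). At the estimated depth, the LIF withdrawal value rests on about 334 fragments (95% exact Poisson interval 299 to 372, counting error only). Gm26953 on the opposite strand shares 2260 nt of exon, 24.3% of Miat, and was listed at 0 in all 4 libraries. On the strand of Miat, Gm27998 was listed at 0 after LIF withdrawal and 1.14 FPKM in EB, against 0 in ES 1 and 0.338 FPKM in ES 2.

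Kcnq1ot1 (ENSMUSG00000101609.1, chr7:143203458-143296549, minus strand, 1 transcript of 93092 nt) had 4.70 FPKM after LIF withdrawal and 5.18 FPKM in EB, against 5.28 FPKM in ES 1 and 5.29 FPKM in ES 2 (5.29 ± 0.0140, SD, n = 2). Both derived values lay below the ES pair, as for 21.2% of all tested genes, by at most 0.14 on the log2 scale. The log2 difference from ES was -0.14 after LIF withdrawal (SE 0.05, 95% interval -0.40 to 0.12, limma adjusted p = 0.241) and -0.02 in EB (SE 0.05, 95% interval -0.29 to 0.24, limma adjusted p = 0.810). Both intervals exclude a 2-fold difference under the spread assumed.

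Kcnq1ot1 lies whole inside the body of Kcnq1, a potassium channel gene on the opposite strand, and 1.20% of its length is opposite an exon. Kcnq1 was listed at 0 after LIF withdrawal and 0.0800 FPKM in EB, against 0.0456 FPKM in ES 1 and 0.132 FPKM in ES 2. The small RNA models Gm27395, Gm27389 and Gm27539 on that strand were listed at 2.48 to 8.16 FPKM after LIF withdrawal, against 0 in EB, ES 1 and ES 2. At the estimated depth these are about 10.1 to 67.8 fragments each, against about 7900 for Kcnq1ot1. The LIF withdrawal library is also the one that had FPKM on Gm37376.

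The 14 protein-coding genes listed for the imprinted Kcnq1 domain included 11 that were tested. In that list 1 gene of the 11 was called higher after LIF withdrawal and 0 lower (limma), a share near the 7.32% called higher over all tested genes, with a median log2 difference of -0.04 against 0.04 over all tested genes; in EB 0 were called, with a median of -0.01 against -0.01. The called gene was Trpm5, an ion channel gene, at 2.21 FPKM after LIF withdrawal and listed at 0 in EB, ES 1 and ES 2 (limma adjusted p = 0.00307), and it overlaps a gene on the opposite strand. Cdkn1c, the imprinted cell cycle inhibitor silenced by Kcnq1ot1 on the paternal chromosome, had 19.4 FPKM after LIF withdrawal and 12.8 FPKM in EB, against 36.7 FPKM in ES 1 and 37.6 FPKM in ES 2. Its log2 difference was -0.90 after LIF withdrawal (limma adjusted p = 0.0311), short of the size for a call, and -1.46 in EB (limma adjusted p = 0.117).

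Phlda2, an imprinted growth regulator of the placenta, had 14.9 FPKM after LIF withdrawal and 17.2 FPKM in EB, against 26.9 FPKM in ES 1 and 26.9 FPKM in ES 2. Its log2 difference was -0.81 after LIF withdrawal (limma adjusted p = 0.0271), also short of a call, and -0.61 in EB (limma adjusted p = 0.139). Cdkn1c is outside the strand-clear set described with the processing. Of the 11 tested genes of the domain, 7 had a log2 difference below 0 and 4 above 0 after LIF withdrawal. In EB it was 6 below and 5 above. The part of Kcnq1ot1 in the values of Cdkn1c and Phlda2 was not tested, and these values do not separate the parental chromosomes. Slc22a18, Nap1l4, Osbpl5, Tnfrsf23, Tssc4, Cd81, Tspan32 and Dhcr7 were not called, with log2 differences from -0.49 for Slc22a18 to 1.19 for Tnfrsf23 after LIF withdrawal, and Th, Ascl2 and Kcnq1 stayed under 1 FPKM. Of 7 silencing factors of the domain, 0 were called, against 7.67% of all tested genes after LIF withdrawal and 0.396% in EB. The most abundant were Suz12 and Rnf2 of the Polycomb complexes, with log2 differences of 0.54 and 0.19 after LIF withdrawal.

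None of the listed proteins that work with these RNAs was called. Over all tested genes 7.67% were called after LIF withdrawal and 0.396% in EB. Of those at 1 FPKM or more in an ES library it was 1.32% and 0.00%. An unadjusted p under 0.05 (limma) was reached by 5837 and 4338 of all 15676 tested genes. Of 26 paraspeckle proteins 0 were called after LIF withdrawal (unadjusted p under 0.05 for 5) and 0 in EB (6), with median log2 differences of -0.12 and -0.05, against 0.04 and -0.01 over all tested genes. The most abundant were Hnrnpk, at 777 FPKM after LIF withdrawal and 920 FPKM in EB, against 853 FPKM in ES 1 and 931 FPKM in ES 2, and Hnrnpa1, whose 4 values lay between 628 and 697 FPKM. Sfpq, Nono and Pspc1, the core paraspeckle proteins, were named after their values were seen, with log2 differences after LIF withdrawal of -0.18, 0.09 and 0.34.

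Of 25 nuclear speckle proteins 0 were called after LIF withdrawal (unadjusted p under 0.05 for 11, limma) and 0 in EB (3). Over all 15676 tested genes 7.67% and 0.396% were called, and 5837 and 4338 had an unadjusted p under 0.05. The medians of the 25 were -0.17 and 0.00. The most abundant, the splicing factors Srsf1 and Srsf2, had log2 differences of 0.04 and -0.15 after LIF withdrawal. Clk4, a kinase of such splicing factors, was singled out after its values were seen. It had 32.4 FPKM after LIF withdrawal and 51.7 FPKM in EB, against 60.2 FPKM in ES 1 and 64.0 FPKM in ES 2, a log2 difference of -0.92 after LIF withdrawal (limma adjusted p = 0.0576).

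The 14 genes that mature RNA ends include RNase P and the RNase Z gene Elac2. Of these, 0 were called after LIF withdrawal (unadjusted p under 0.05 for 5, limma) or in EB (4). Over all 15676 tested genes 7.67% and 0.396% were called, and 5837 and 4338 had an unadjusted p under 0.05. The medians of the 14 were -0.04 and -0.03. Rpph1, the RNA of RNase P, had 2105 FPKM after LIF withdrawal and 5720 FPKM in EB, against 3692 FPKM in ES 1 and 2554 FPKM in ES 2. Pop1, its largest protein, had 75.0 FPKM after LIF withdrawal and 62.7 FPKM in EB, against 59.5 FPKM in ES 1 and 63.2 FPKM in ES 2. Of 4 proteins that bind Miat, 3 were tested and 0 were called, with log2 differences of 0.04 for Srsf1 and -0.06 for Sf1 after LIF withdrawal.

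The 11 genes listed for Dleu2 (its microRNAs and their known cell cycle and survival targets) included 8 that were tested. Of these 8, 0 were called, against 7.67% of all tested genes after LIF withdrawal and 0.396% in EB. The list medians were 0.00 after LIF withdrawal and -0.28 in EB. Ccnd1, encoding cyclin D1, had 80.0 FPKM after LIF withdrawal and 81.7 FPKM in EB, against 110.9 FPKM in ES 1 and 109.9 FPKM in ES 2. Ccne1, encoding cyclin E1, had 88.2 FPKM after LIF withdrawal and 61.2 FPKM in EB, against 91.5 FPKM in ES 1 and 94.5 FPKM in ES 2. Other targets lay on the other side after LIF withdrawal: Ccnd3, encoding cyclin D3 and named after its values were seen, had 48.6 FPKM there and 27.0 FPKM in EB, against 31.7 ± 0.478 FPKM in ES (SD, n = 2; log2 difference 0.60 after LIF withdrawal, limma adjusted p = 0.0440, short of a call). Of the 8 tested, 4 had a log2 difference above 0 and 4 below 0 after LIF withdrawal, and 1 above and 7 below in EB.

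**Figure D5:**
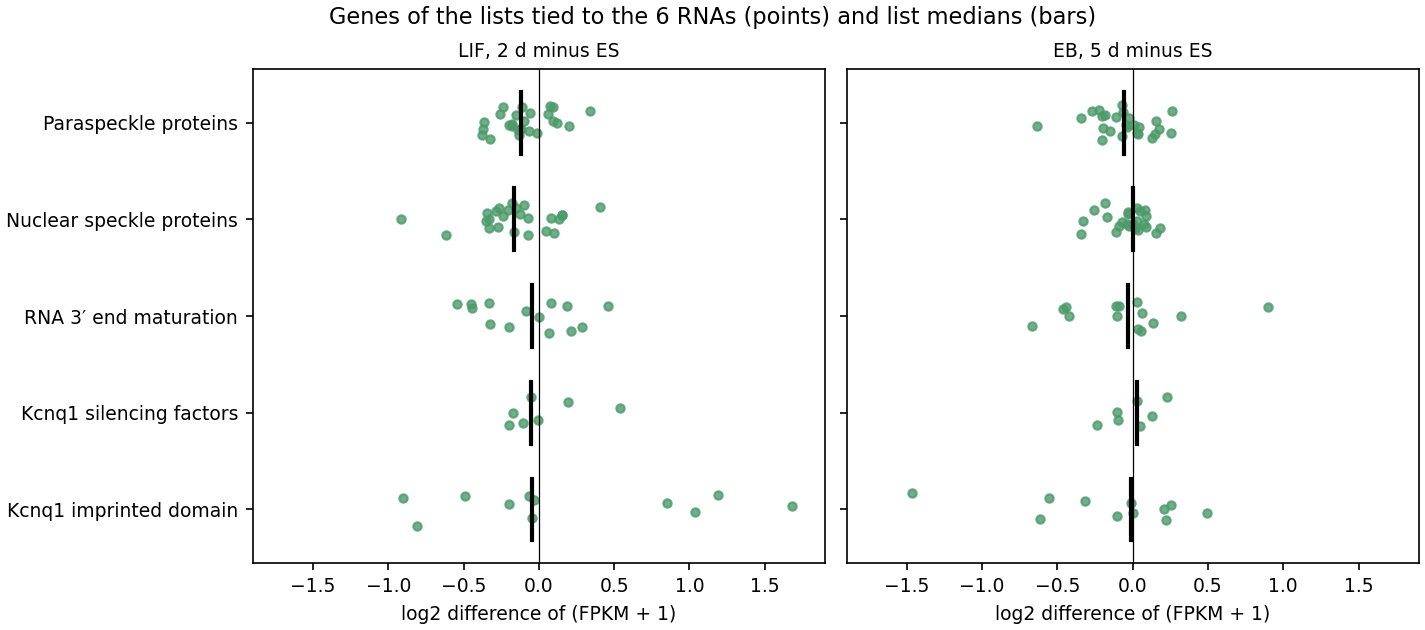
Log2 differences of (FPKM + 1) for the tested genes of 5 lists tied to the 6 RNAs (points) with the list median (bar), for LIF withdrawal minus ES (left) and EB minus ES (right). The medians lie between -0.17 and 0.03, and single genes of the Kcnq1 domain reach farthest from 0.

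Among 17 other nuclear or long non-coding RNAs found in the table, 14 were tested. Xist, the RNA that coats the inactive X chromosome, was higher in the single LIF withdrawal library. It had 14.4 FPKM there and 1.18 FPKM in EB, against 1.28 FPKM in ES 1 and 1.47 FPKM in ES 2 (log2 difference 2.70 after LIF withdrawal, limma adjusted p = 0.0277). The summed feeder markers were highest in the same library, and their part in the Xist value was not tested. Xist overlaps an opposite-strand gene. It was the only one of the 14 called after LIF withdrawal, against 7.67% of all tested genes. Of tested genes at 1 FPKM or more in an ES library, 1.32% were called. The median of the list was -0.23 after LIF withdrawal and -0.14 in EB, against 0.04 and -0.01 over all tested genes.

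The 13 protein-coding genes within 100 kb of Malat1 or Neat1 included 11 that were tested. Against 0.396% to 7.88% of all tested genes, 0 of these 11 were called in any comparison. Their median log2 difference was -0.10 after LIF withdrawal and 0.12 in EB, with a range in EB from -0.46 for Dpf2 to 0.68 for Cdc42ep2, so none reached the Malat1 value of 0.94. Frmd8, the gene nearest to Neat1 at 4.22 kb, had 7.64 FPKM after LIF withdrawal and 10.4 FPKM in EB, against 8.56 FPKM in ES 1 and 8.96 FPKM in ES 2. Ltbp3, Tigd3, Sssca1, Fam89b, Ehbp1l1, Map3k11 and Pola2 were also tested, and Slc25a45 and Kcnk7 stayed under 1 FPKM.

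The genes most like Malat1 across the 4 libraries, by the root mean square difference of mean-centred log2(FPKM + 1) among 8256 genes, were Trim36, Elavl2, Aldoc and Ptprn, at 0.03 to 0.05. Aldoc, the brain form of aldolase, had 5.14 FPKM after LIF withdrawal and 10.3 FPKM in EB, against 5.07 FPKM in ES 1 and 5.13 FPKM in ES 2. In all, 19 genes lay within 0.1 of Malat1 and 221 within 0.1 of Neat1. A fixed distance can hold more genes around a profile with smaller steps, so these counts do not rank the patterns. The most like Neat1 were Gak, Rpl35a, Tmem256 and Esrrb, at 0.01 to 0.02. Esrrb, a nuclear receptor of the pluripotency network, had 114 FPKM after LIF withdrawal and 175 FPKM in EB, against 159 FPKM in ES 1 and 156 FPKM in ES 2. Likeness over 4 libraries is a description and carries no test.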

How the data were processed

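The deposited table gives FPKM per gene, computed by the authors, for 2 ES libraries, 1 LIF withdrawal library and 1 EB library. The tools named in the submitters' processing notes are STAR, Cufflinks and Trimmomatic 0.36, with build mm10. How each was run, which annotation it used and whether strand was set: not given in the sources used here. Of 47633 identifiers, 47219 matched GENCODE release M21 (414 did not), which supplied names, coordinates and overlaps; sequences came from GENCODE and RefSeq GRCm38.p6.

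The 15676 genes that reached 1 FPKM anywhere were tested with limma 3.58.1 (R 4.3.3) on the scale log2(FPKM + 1), with a trend on mean level and 1 residual degree of freedom; log2 differences understate changes of low genes. A call needed both a log2 difference of 1 or more in size and a p under 0.05 after Benjamini-Hochberg adjustment. In simulated data, known changes were put into a small share of genes, in the EB library alone, and read against ES. The fit returned their sizes, but over all genes it called none of them. Over strand-clear genes (coding or long non-coding, 1000 nt of exon or more, no gene body on the opposite strand) it called nearly all. A missed call in EB against ES therefore says little, and the other comparisons were not simulated. Depth was estimated from the lowest FPKM steps of genes with 1 transcript of 3000 nt or more, and counting intervals and floors (3 fragments, 0.0954 to 0.166 FPKM at 1 kb) cover counting error only.

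Members and lists were chosen with earlier results of these data known. Named were all 6 RNAs, overlapping genes at 1 FPKM or more, coding neighbours within 100 kb (1 is not reported here), the Kcnq1 domain, called members of other lists (at most 4; where there were none, the 2 with the highest mean FPKM) and the 4 genes most like Malat1 or Neat1. Alternatives were a pseudocount of 0.1, no filter, median-of-ratios scaling, no trend, a strand-clear set, a length and type filter, and each ES library left out. Python 3.11.15 with pandas 2.3.3 was used.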

Additional observations from a re-analysis of the deposited data

Results flagged for a closer look

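Neat1 stood out because its difference from ES ran opposite ways in the derived libraries: below both ES libraries after LIF withdrawal and above both in EB. The log2 difference between EB and LIF withdrawal was 0.64, with a limma adjusted p of 0.0426, and the adjusted p ranged from 0.0232 to 0.0513 over the alternatives. It rests on 1 library on each side, and 10.6% of tested genes showed the same order of libraries.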

How the results depend on the processing

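No paired analysis was possible because only the ES group has more than 1 library, so no groups share replicate numbers. Where the model was refitted under an alternative, every value of the 6 RNAs kept its direction and its side of the call. The 129 values compared also include those with 1 ES library left out, which carry no call. By construction these move by less than the ES spread, and the EB against LIF withdrawal value does not move at all. They are therefore no check of stability. The adjusted p (limma) of Neat1 after LIF withdrawal ranged from 0.0250 to 0.0540, above 0.05 without the trend (0.0540) and with median-of-ratios scaling (0.0501); that of Tug1 ranged from 0.0464 to 0.0924. Leaving out either ES library changed the sign of uncalled values: -0.06 to 0.02 for Malat1 after LIF withdrawal and -0.30 to 0.18 for Miat in EB. Counts of called genes moved more. For LIF withdrawal against ES they were 207 in the strand-clear set and 793 with the length and type filter, against 1203. For EB against ES they were 131 with a pseudocount of 0.1, 138 without a filter, 157 in the strand-clear set, 0 without the trend and 0 with the length and type filter, against 62. For EB against LIF withdrawal the strand-clear set gave 302, against 1236. The 2-fold rule after LIF withdrawal gave 7296 without a filter, 448 in the strand-clear set and 1350 with the length and type filter, against 2402; in EB it gave 5136, 394 and 798, against 1256. With either ES library left out it gave 1725 to 2372 in EB. Fewer or more genes were tested under the filters; the cause of the other moves was not tested. With 1 derived library each, depth limits Miat most.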
